A study of Rattus norvegicus with 9 samples.

Results

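The C-type lectin, Cd300, Siglec, Slamf and Lilr genes encode mainly cell surface receptors, most of them of leukocytes. Some Clec genes encode secreted or endosomal proteins instead. All were followed here in rat striatum in a study of intracerebral hemorrhage. The members were all gene rows whose symbol begins with Clec and a digit, Cd300, Siglec, Slamf and a digit, Pilr or Lilr, apart from Clec7a. These were 58 of the 22890 gene rows: 32 Clec, 6 Cd300, 7 Siglec, 5 Slamf and 8 Lilr rows. Messenger RNA of rat striatal tissue had been sequenced in 9 libraries, 3 each of a Sham group, a group named intracerebral hemorrhage (ICH, bleeding into the brain tissue) and a group named edaravone dexborneol (EDB, a combination drug whose edaravone scavenges free radicals). Strain, age, sex, dose, route and time after surgery are not stated in the labels. Neither is it stated whether the EDB rats had a hemorrhage, so EDB was set against both other groups. Whether the 3 libraries within each group derive from different rats is not stated either, and p-values thus describe the spread between these libraries alone, which may be technical.

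Receptors of these families read the surface of other cells, and many occur as pairs of opposite effect. Inhibitory members carry tyrosine motifs in their tails that recruit phosphatases such as Ptpn6, whereas activating members borrow the tails of the adaptors Tyrobp and Fcer1g. C-type lectins bind sugars or proteins, Siglecs bind sialic acid, Cd300 receptors bind lipids such as phosphatidylserine, Slamf receptors mostly bind copies of themselves, and some Lilrb receptors bind MHC class I molecules. In brain tissue such receptors are known mainly from microglia and from macrophages and monocytes.

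Levels are given as CPM, read counts divided by library size after scaling by the trimmed mean of M values, so that they can be compared between libraries for 1 gene but not between genes. Of the 58 members, 28 passed the filter on low counts and were tested, and 30 were too low to test. Rises and falls are changes for which the Benjamini-Hochberg adjusted p of edgeR's quasi-likelihood test, over all 14274 genes tested, was under 0.05. Changes are log2 fold changes ± SE with 3 libraries against 3, and levels are mean ± SD with n = 3.

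Total counts ran from 14658110 to 17659936 per library, of which the members took 0.0202% to 0.0239% in Sham, 0.0428% to 0.0582% in ICH and 0.0240% to 0.0360% in EDB. The tissue label was met by the 10 striatal neuron genes found in the files, which were detected and summed to 11155 to 16709 CPM in Sham, 7028 to 8779.6 CPM in ICH and 10460.3 to 11870.3 CPM in EDB. Some libraries stood apart. Albumin (Alb), a liver gene, stood at 2.27 to 3.21 CPM in Sham 2, ICH 1 and EDB 1 and at 17.98 to 166 CPM in the other 6. The choroid plexus gene Ttr stood at 6684 CPM in EDB 3 and at 17.0 to 52.5 CPM elsewhere. No read of the Y-linked Kdm5d or Eif2s3y was found in ICH 1, and they stood at 3.35 to 18.5 CPM in the other 8. ICH 1 is thus not from the same rat as ICH 2 or ICH 3. Results are therefore also given without the libraries that stood apart where that changes a call.

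The comparison of ICH with Sham asks what hemorrhage changed in these receptors. Of the 28 tested members, 14 rose, none fell and 14 were not called. Over all tested genes, 11.4% rose and 7.3% fell, which is 1628 and 1042 genes (2008 and 691 with scaling by library size only). The test found 0 lower members, with 1 lower at an unadjusted p under 0.05 and 0 called lower by DESeq2 or limma-voom. The median log2 fold change of the tested members was 2.15, against 0.01 over all tested genes. All 3 tested Cd300 genes, 4 of 5 Slamf genes, 3 of 4 tested genes of the Clec4 and Clec10 group, 2 of 5 tested Lilr genes, 1 of 4 tested Siglec genes and 1 of 3 tested genes of the Clec1, 2, 5, 9 and 12 group rose, and 0 of the 4 other tested Clec genes. All 3 ICH libraries lay above all 3 Sham libraries in 18 of the 28 members, and 20.2% of all tested genes had that order. A gene passes the filter on low counts when as many libraries as a group holds have enough reads. Members with few reads elsewhere, such as Lilrb4 and Slamf6, can thus pass through their ICH libraries alone. The direction of such members is not independent of the filter. They enter the counts and medians here and in EDB against ICH. The tissue was bulk, so more cells of a type and more RNA per cell cannot be told apart.

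**Figure D1:**
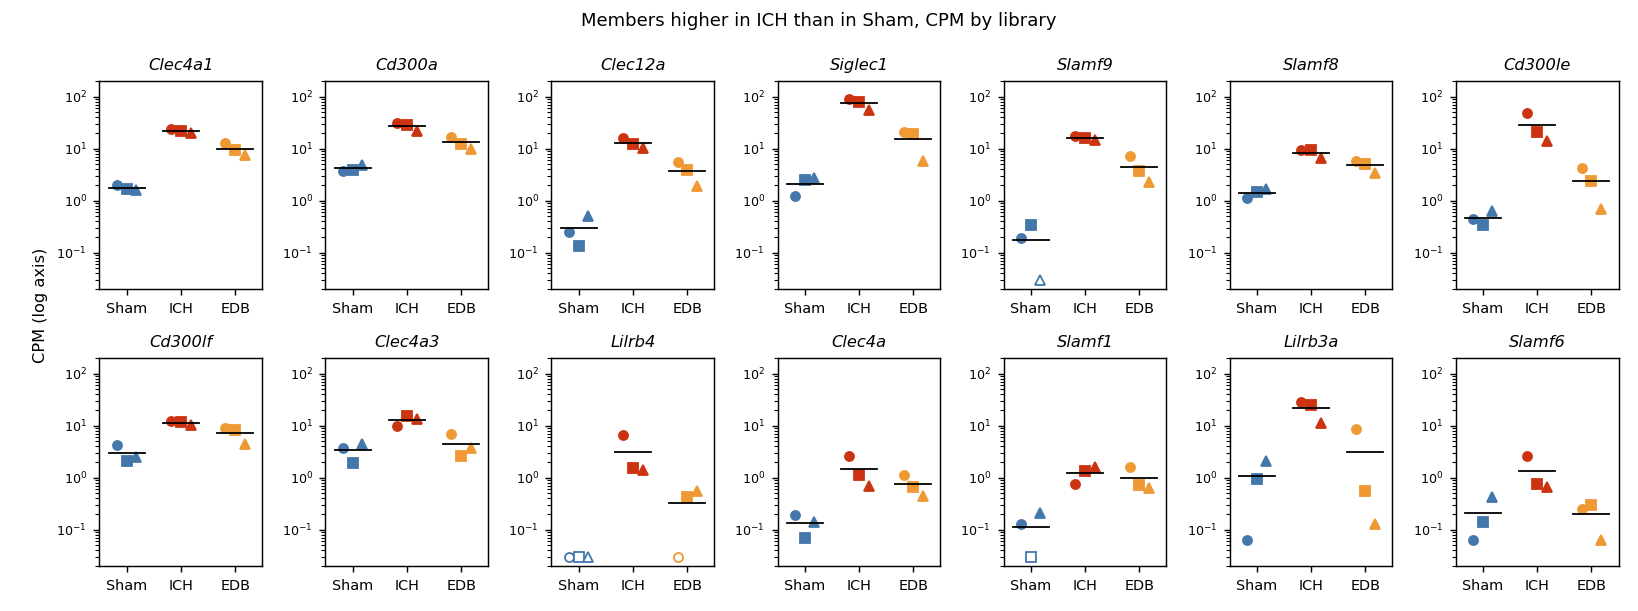
CPM on a log axis of the 14 members that rose in ICH, by group, with circle, square and triangle for libraries 1, 2 and 3 and a bar at the group mean. Open symbols mark libraries with no reads, drawn at 0.03 CPM, and the ICH libraries lie above the Sham libraries in all 14.

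Among the C-type lectins, Clec4a1, a relative of the dendritic cell immunoreceptor, changed with the least spread. Its level was 2.0, 1.71 and 1.63 CPM in Sham 1 to 3, 23.4, 21.6 and 19.8 CPM in ICH 1 to 3 and 12.9, 9.29 and 7.44 CPM in EDB 1 to 3. The groups did not overlap, with EDB between the others, and Clec4a1 rose in ICH from 1.78 ± 0.195 to 21.6 ± 1.81 CPM (log2 fold change 3.59 ± 0.25, adjusted p = 2.01e-05). Clec4a3, another relative, stood at 3.62, 1.92 and 4.46 CPM in Sham 1 to 3, 9.85, 15.1 and 13.6 CPM in ICH 1 to 3 and 6.81, 2.64 and 3.63 CPM in EDB 1 to 3. All ICH libraries of Clec4a3 exceeded all Sham and EDB libraries, while EDB overlapped Sham, and the rise from Sham to ICH was called (log2 fold change 1.94 ± 0.40, adjusted p = 0.00611). Clec4a, which encodes the dendritic cell immunoreceptor, inhibitory in human and mouse, was low at 0.187, 0.0684 and 0.142 CPM in Sham 1 to 3, 2.62, 1.13 and 0.702 CPM in ICH 1 to 3 and 1.11, 0.659 and 0.438 CPM in EDB 1 to 3. Only 6 reads over the 3 Sham libraries and 76 over the ICH libraries stood behind the Clec4a values, a ratio of 10.99 (95% counting interval 4.82 to 30.9). Clec4a rose (log2 fold change 3.40 ± 0.72, adjusted p = 0.00781), but not when Sham 2, ICH 1 and EDB 1 were left out together (log2 fold change 2.41, adjusted p = 0.0657).

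Clec12a encodes an inhibitory receptor of myeloid cells that binds uric acid crystals in mouse and human. It stood at 0.250, 0.137 and 0.496 CPM in Sham 1 to 3, 15.9, 12.4 and 10.2 CPM in ICH 1 to 3 and 5.44, 3.96 and 1.88 CPM in EDB 1 to 3. Every ICH library held more Clec12a than every other library, and every Sham library held less (log2 fold change 5.42 ± 0.52, adjusted p = 6.63e-05). Clec10a, a lectin for galactose-type sugars on macrophages, stood at 1.69, 1.64 and 2.55 CPM in Sham 1 to 3, 5.48, 3.46 and 2.38 CPM in ICH 1 to 3 and 2.97, 1.92 and 1.44 CPM in EDB 1 to 3. ICH 3 lay within the Sham range, and Clec10a was not called (log2 fold change 0.94 ± 0.41, adjusted p = 0.142).

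The Cd300 receptors that could be tested all rose. Cd300a, an inhibitory receptor for phosphatidylserine and phosphatidylethanolamine, stood at 3.75, 3.97 and 4.96 CPM in Sham 1 to 3, 31.5, 28.9 and 21.4 CPM in ICH 1 to 3 and 17.1, 12.5 and 10.1 CPM in EDB 1 to 3. The 3 groups of Cd300a values did not overlap, and the rise from 4.22 ± 0.643 to 27.3 ± 5.21 CPM was called (log2 fold change 2.69 ± 0.25, adjusted p = 5.63e-05). For Cd300le, the level was 0.437, 0.342 and 0.637 CPM in Sham 1 to 3, 49.2, 20.8 and 14.1 CPM in ICH 1 to 3 and 4.27, 2.34 and 0.688 CPM in EDB 1 to 3. ICH 1 held the most Cd300le and EDB 3 stood just above the Sham libraries. The rise of Cd300le in ICH was called (log2 fold change 5.87 ± 0.72, adjusted p = 0.000262). Cd300lf, a lipid-binding receptor that limits myeloid activation in mouse, had 4.31, 2.12 and 2.48 CPM in Sham 1 to 3, 12.4, 11.8 and 10.1 CPM in ICH 1 to 3 and 8.91, 8.15 and 4.38 CPM in EDB 1 to 3. Its groups did not overlap, although EDB 3 lay close to Sham 1, and it rose in ICH (log2 fold change 1.94 ± 0.34, adjusted p = 0.00252).

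Siglec1, the sialoadhesin of macrophages, binds sialic acid on other cells without a signalling motif in its tail. Its values were 1.25, 2.46 and 2.69 CPM in Sham 1 to 3, 91.9, 80.2 and 54.7 CPM in ICH 1 to 3 and 21.3, 18.9 and 5.75 CPM in EDB 1 to 3. No 2 groups overlapped, and Siglec1 rose from 2.13 ± 0.774 to 75.6 ± 19.0 CPM (log2 fold change 5.15 ± 0.50, adjusted p = 6.88e-05). The other tested Siglec genes were not called. Siglec15, which pairs with Tyrobp in osteoclasts, stood at 3.75, 3.42 and 3.68 CPM in Sham 1 to 3, 4.72, 6.86 and 6.75 CPM in ICH 1 to 3 and 3.96, 4.80 and 3.88 CPM in EDB 1 to 3. The ICH libraries of Siglec15 exceeded the Sham libraries without reaching the threshold (log2 fold change 0.76 ± 0.25, adjusted p = 0.0588), and the gene was called without ICH 1 (adjusted p = 0.0464), with DESeq2 (adjusted p = 0.0468) and with scaling by library size only (adjusted p = 0.045). Siglec5 had 8.31, 5.81 and 8.85 CPM in Sham 1 to 3, 11.7, 8.24 and 11.2 CPM in ICH 1 to 3 and 12.5, 17.1 and 10.1 CPM in EDB 1 to 3. Sham and ICH overlapped in Siglec5, EDB lay above Sham, and no comparison was called (log2 fold change 0.44 ± 0.26, adjusted p = 0.278 for ICH against Sham and log2 fold change 0.79 ± 0.25, adjusted p = 0.089 for EDB against Sham), although DESeq2 called Siglec5 higher in EDB than in Sham (adjusted p = 0.0362). Siglec10, whose human form binds CD24, had 0.0625, 0.684 and 0.0708 CPM in Sham 1 to 3, 2.62, 0.692 and 0.918 CPM in ICH 1 to 3 and 0.804, 0.300 and 0.188 CPM in EDB 1 to 3. All ICH libraries of Siglec10 lay above the highest Sham library, ICH 2 by little and ICH 1 by most, and the gene was not called (log2 fold change 2.35 ± 0.90, adjusted p = 0.0961).

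In the Slamf family, Slamf9 and Slamf8 showed the clearest separation. Slamf9, a short-tailed member, stood at 0.187, 0.342 and 0 CPM in Sham 1 to 3, 17.5, 15.9 and 14.9 CPM in ICH 1 to 3 and 7.18, 3.78 and 2.25 CPM in EDB 1 to 3. Just 8 reads over the Sham libraries stood against 830 over the ICH libraries, a ratio of 90.0 (95% counting interval 45.5 to 209), and Slamf9 rose (adjusted p = 6.99e-05). Slamf8, which restrains the phagocyte oxidase in mouse, had 1.12, 1.44 and 1.70 CPM in Sham 1 to 3, 9.33, 9.25 and 6.64 CPM in ICH 1 to 3 and 5.82, 5.16 and 3.38 CPM in EDB 1 to 3. All 3 groups of Slamf8 stood apart, and the rise in ICH was called (log2 fold change 2.56 ± 0.31, adjusted p = 0.000252). Slamf1, a self-binding receptor of leukocytes, had 0.125, 0 and 0.212 CPM in Sham 1 to 3, 0.758, 1.32 and 1.57 CPM in ICH 1 to 3 and 1.61, 0.719 and 0.625 CPM in EDB 1 to 3. In Slamf1, EDB covered the whole range of ICH and both groups lay above Sham (log2 fold change 3.35 ± 0.78, adjusted p = 0.0119 for ICH against Sham). Those values rest on 5 reads over Sham and 63 over ICH, a ratio of 10.9 (95% counting interval 4.45 to 34.8). Slamf6, another self-binding receptor, had 0.0625, 0.137 and 0.425 CPM in Sham 1 to 3, 2.57, 0.755 and 0.648 CPM in ICH 1 to 3 and 0.247, 0.300 and 0.0625 CPM in EDB 1 to 3. ICH 1 held most of the Slamf6 reads, and the rise of 2.65 ± 0.82 (adjusted p = 0.0454) was 1.74 without ICH 1 (adjusted p = 0.23). Leaving out Sham 1 or 2, ICH 2, or EDB 1 or 2 ended the call of Slamf6 too, at adjusted p between 0.0578 and 0.141. It was also lost without Sham 2, ICH 1 and EDB 1 together (log2 fold change 1.54, adjusted p = 0.324), with the replicate number as a block (adjusted p = 0.106), with a term for the libraries with little Alb (0.0636), with limma-voom (0.0617), with only the 6 libraries compared (0.0568) and with no filter on low counts (0.0543). Slamf7 was not called and stood at 0.958 to 3.04 CPM in Sham and 1.34 to 1.62 CPM in ICH, with a log2 fold change of -0.31 ± 0.44 (adjusted p = 0.697).

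The Lilrb rows differed between libraries of the same group. Lilrb4, an inhibitory receptor, had no read in any Sham library, which at 3 counts allows up to 0.188 to 0.212 CPM in each. In ICH its level was 6.47, 1.51 and 1.40 CPM and in EDB it was 0, 0.420 and 0.563 CPM. With 161 reads over ICH, Lilrb4 was at least 46.6-fold higher there than the 3 counts over the group that a count of 0 allows in Sham, and the rise was called (adjusted p = 0.00704). The reference gene table lists Lilrb3a among the other names of Pirb, the paired immunoglobulin-like receptor B, and Lilrb3l among those of both Pirb and Pira2. The reads of Lilrb3a numbered 1, 14 and 30 in Sham 1 to 3, 494, 393 and 209 in ICH 1 to 3 and 139, 9 and 2 in EDB 1 to 3. For Lilrb3l the reads numbered 0, 32 and 53 in Sham 1 to 3, 395, 450 and 254 in ICH 1 to 3 and 352, 2 and 1 in EDB 1 to 3. Both rows held between 0 and 9 reads in Sham 1, EDB 2 and EDB 3, between 14 and 53 in Sham 2 and Sham 3, and between 139 and 494 in EDB 1 and the ICH libraries.

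Lilrb1 and Lilrb2 had no reads in Sham 1, EDB 2 and EDB 3. Lilrb1 had 0, 8 and 10 in Sham 1 to 3, 23, 22 and 13 in ICH 1 to 3 and 5, 0 and 0 in EDB 1 to 3, and Lilrb2 had 0, 3 and 3 in Sham 1 to 3, 39, 31 and 9 in ICH 1 to 3 and 9, 0 and 0 in EDB 1 to 3. Lilrb3, by contrast, was detected in all 9 libraries, with 18, 16 and 13 in Sham 1 to 3, 68, 14 and 41 in ICH 1 to 3 and 21, 35 and 26 in EDB 1 to 3. Lilrb4 was at 0 in EDB 1, where Lilrb3a and Lilrb3l were high. Naming Lilrb1, Lilrb2 and Lilrb3 singly was a choice made after their values were seen.

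**Figure D2:**
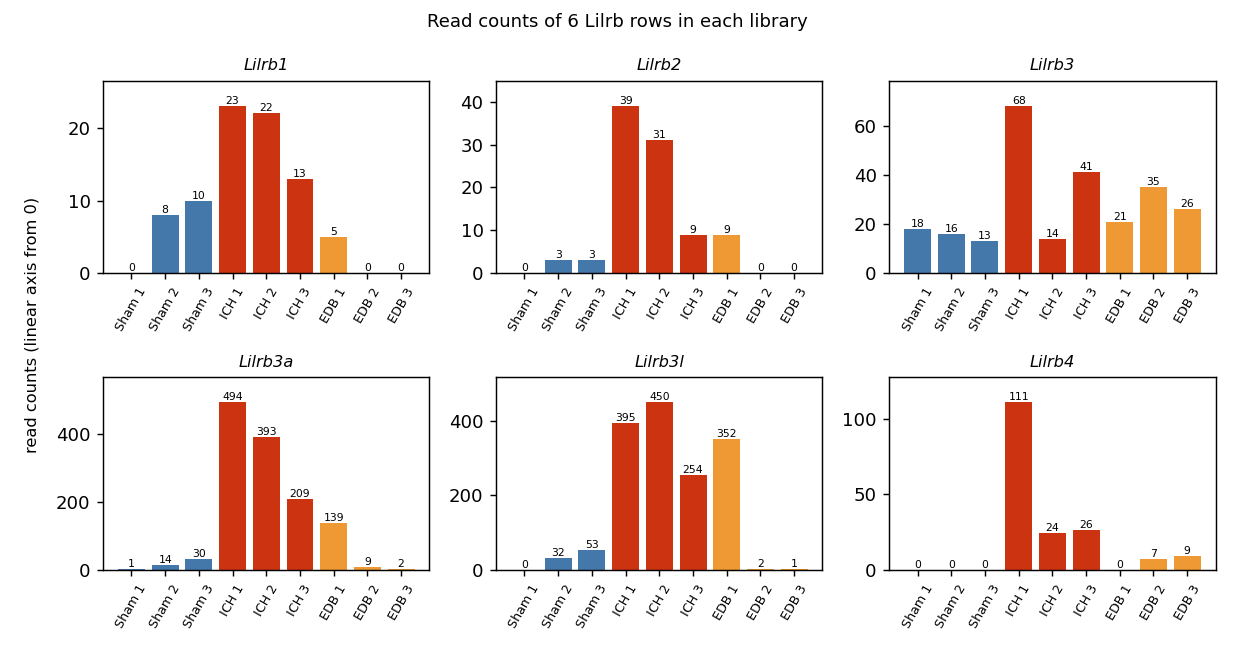
Read counts of 6 Lilrb rows in the 9 libraries, each panel on its own linear axis from 0 with the count above each bar. Lilrb1, Lilrb2, Lilrb3a and Lilrb3l hold 0 to 9 reads in Sham 1, EDB 2 and EDB 3, whereas Lilrb3 holds 13 to 68 reads in every library.

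Lilrb3a rose in ICH (log2 fold change 4.38 ± 1.29, adjusted p = 0.0441), and leaving out any single Sham or ICH library ended the call, at adjusted p between 0.0607 and 0.144. So did the replicate block (adjusted p = 0.1002), RLE scaling (0.0563), no filter on low counts (0.106) and leaving out Sham 2, ICH 1 and EDB 1 together (0.0609). Lilrb3l was not called (log2 fold change 3.47 ± 1.74, adjusted p = 0.224), but was called without EDB 1 (adjusted p = 0.0151) and with only the 6 libraries compared (adjusted p = 0.0156). Close paralogs can share reads, and how the counting assigned them was not measured. With Lilrb1, Lilrb2, Lilrb3, Lilrb3a and Lilrb3l summed to 1 row, a choice made after seeing the data, the level was 1.19, 4.99 and 7.72 CPM in Sham, 59.4, 57.3 and 28.4 CPM in ICH and 32.5, 2.76 and 1.81 CPM in EDB. The summed row was not called in ICH against Sham (log2 fold change 3.39 ± 1.15, adjusted p = 0.0812).

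Several further Clec genes were read well enough to name and were not called. Clec16a encodes an endosomal protein of mitophagy, and its level was 74.1, 89.1 and 87.2 CPM in Sham 1 to 3, 69.0, 73.5 and 74.2 CPM in ICH 1 to 3 and 89.6, 75.1 and 79.0 CPM in EDB 1 to 3. Clec2l, known in human as a lectin of the brain, had 47.0, 72.4 and 59.5 CPM in Sham 1 to 3, 62.0, 62.4 and 57.3 CPM in ICH 1 to 3 and 83.5, 78.2 and 56.5 CPM in EDB 1 to 3. ICH overlapped Sham in both genes, all EDB libraries of Clec16a lay above all ICH libraries, and neither gene was called in any comparison (Clec16a in ICH against Sham log2 fold change -0.21 ± 0.12, adjusted p = 0.265). Clec2g, in mouse a ligand of NKR-P1 receptors, had 27.6, 26.5 and 37.9 CPM in Sham 1 to 3, 57.5, 38.3 and 38.1 CPM in ICH 1 to 3 and 33.5, 37.7 and 32.1 CPM in EDB 1 to 3. ICH 1 stood above the other Clec2g values, and the lowest ICH library exceeded the highest Sham library by less than the spread within either group (log2 fold change 0.54 ± 0.20, adjusted p = 0.0798). Clec2g was called without Sham 3 (adjusted p = 0.0391) and with scaling by library size only (adjusted p = 0.0426).

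Clec11a, a secreted growth factor of bone and blood stem cells, was the 1 member whose ICH libraries all lay below Sham. It had 4.0, 5.40 and 4.88 CPM in Sham 1 to 3, 3.15, 2.64 and 2.86 CPM in ICH 1 to 3 and 3.77, 2.82 and 4.13 CPM in EDB 1 to 3 and was not called (log2 fold change -0.72 ± 0.27, adjusted p = 0.0924). Among all tested genes, 15.4% had ICH libraries that all lay below Sham. Clec14a, an endothelial receptor, had 3.81, 3.90 and 6.58 CPM in Sham 1 to 3, 6.70, 4.97 and 5.51 CPM in ICH 1 to 3 and 5.07, 2.52 and 3.38 CPM in EDB 1 to 3. Tetranectin (Clec3b), which binds plasminogen, had 4.75, 4.86 and 4.96 CPM in Sham 1 to 3, 5.31, 4.40 and 5.02 CPM in ICH 1 to 3 and 4.83, 4.38 and 2.81 CPM in EDB 1 to 3. The groups overlapped in both genes, and neither was called.

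**Figure D3:**
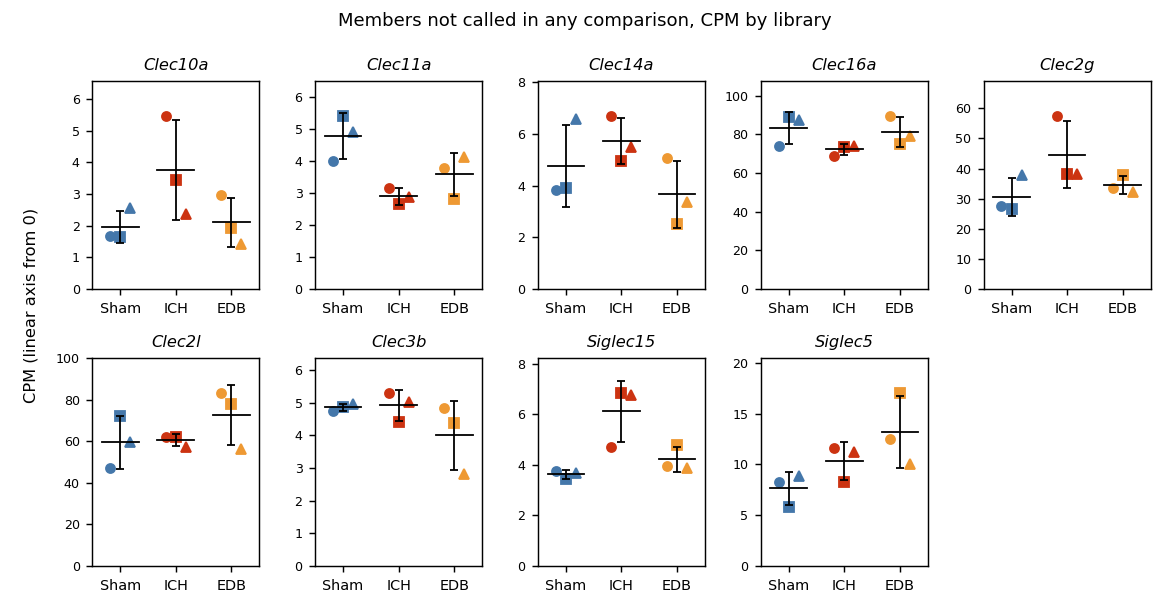
CPM on linear axes from 0 of 9 members that were not called in any comparison, with circle, square and triangle for libraries 1, 2 and 3 and mean ± SD (n = 3) as bars. Clec11a is the one member in which all ICH libraries lie below all Sham libraries.

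The 30 members that were not tested included 4 without a read in any library (Clec2d, Clec2h, Clec4n and Siglecl1). The other 26 had 1 to 131 reads over all 9 libraries, and 10 of them had under 10. Of these 26, 19 had their highest count in an ICH library (13 of them in ICH 1), 4 in an EDB library and 2 in a Sham library, with 1 tie. These counts were not scaled to library size, and ICH 3 and ICH 1 had the largest totals (17659936 and 16927151). The matching share over all untested genes was not worked out. Together the 26 members held 25, 12 and 16 reads in Sham 1 to 3, 251, 85 and 80 reads in ICH 1 to 3 and 36, 32 and 96 reads in EDB 1 to 3. Clec5a, a Tyrobp-coupled receptor of myeloid cells, had 0, 0 and 0 in Sham 1 to 3, 40, 0 and 0 in ICH 1 to 3 and 0, 7 and 0 in EDB 1 to 3. All its ICH reads thus came from ICH 1. Clec4a2, a further relative of Clec4a, had 1, 0 and 0 in Sham 1 to 3, 54, 9 and 9 in ICH 1 to 3 and 3, 3 and 0 in EDB 1 to 3. Clec4e, which encodes the receptor Mincle for microbial glycolipids and for a protein of dead cells, had 0, 0 and 3 in Sham 1 to 3, 11, 8 and 2 in ICH 1 to 3 and 1, 3 and 0 in EDB 1 to 3. Clec18a had 3, 6 and 0 in Sham 1 to 3, 7, 4 and 26 in ICH 1 to 3 and 2, 3 and 80 in EDB 1 to 3, and its 80 reads in EDB 3 made up most of the EDB 3 total. These genes were picked for mention after their counts were seen.

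The comparison of EDB with ICH asks whether the receptors stood lower in the drug group. Of the 28 tested members, 3 fell, none rose and 25 were not called, whereas 0.631% of all tested genes fell and 0.056% rose. The test found 0 higher members, with 0 higher at an unadjusted p under 0.05 and 0 called higher by DESeq2 or limma-voom. The median log2 fold change was -0.92, against -0.03 over all tested genes. All EDB libraries lay below all ICH libraries in 14 members, and 13.6% of all tested genes had that order. Cd300le fell from 28.02 ± 18.6 to 2.43 ± 1.79 CPM (log2 fold change -3.52 ± 0.59, adjusted p = 0.0411). Siglec1 fell from 75.6 ± 19.0 to 15.3 ± 8.38 CPM (log2 fold change -2.30 ± 0.41, adjusted p = 0.0439). Clec4a1 fell from 21.6 ± 1.81 to 9.89 ± 2.79 CPM (log2 fold change -1.13 ± 0.22, adjusted p = 0.0483). In each of the 3, every EDB library was below every ICH library.

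These 3 calls lay close to the threshold. Leaving out Sham 1 or 3, ICH 1 or 2, or EDB 2 or 3 ended the call of Cd300le, at adjusted p between 0.0631 and 0.0941. Siglec1 was called only without Sham 2 among the libraries left out singly, and otherwise had adjusted p from 0.0511 to 0.151. Clec4a1 was called without Sham 2 or EDB 1 and had adjusted p from 0.0677 to 0.174 without each other library, and it lost its call with the replicate number as a block (adjusted p = 0.06). With only the 6 libraries compared, none of the 3 was called (adjusted p = 0.0669 for Cd300le, 0.0673 for Siglec1 and 0.0585 for Clec4a1). Leaving out Sham 2, ICH 1 and EDB 1 together also ended all 3 calls (adjusted p = 0.0726 for Cd300le, 0.175 for Siglec1 and 0.0821 for Clec4a1), and Siglec1 lost its call with no filter on low counts (adjusted p = 0.0616). DESeq2 called 8 members lower and limma-voom 6.

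A further 4 members lay below ICH in every EDB library with an adjusted p between 0.05 and 0.1. Cd300a had log2 fold change -1.04 ± 0.23, adjusted p = 0.066. For Clec12a the values were -1.77 ± 0.39 (adjusted p = 0.0695), for Slamf9 -1.87 ± 0.44 (adjusted p = 0.0843) and for Clec4a3 -1.56 ± 0.39 (adjusted p = 0.0936). Without Sham 2, Cd300a (adjusted p = 0.0496), Clec12a (adjusted p = 0.0444) and Clec4a3 (adjusted p = 0.0482) were called lower in EDB. Clec4a3 was also called without Sham 2, ICH 1 and EDB 1 (log2 fold change -2.19, adjusted p = 0.0362), Slamf9 with a term for these libraries (adjusted p = 0.0432) and Cd300a with scaling by library size only (adjusted p = 0.0497). Those that DESeq2 called beyond the 3 were Cd300a, Clec12a, Clec4a3, Lilrb4 and Slamf9, and those of limma-voom were Cd300a, Clec12a and Slamf9. Slamf1 did not follow them, with log2 fold change -0.30 ± 0.60, adjusted p = 0.835 and EDB values that covered the ICH range. Lilrb3a had log2 fold change -2.80 ± 1.15, adjusted p = 0.273, and without EDB 1 it had -5.98 (adjusted p = 0.0478).

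**Figure D4:**
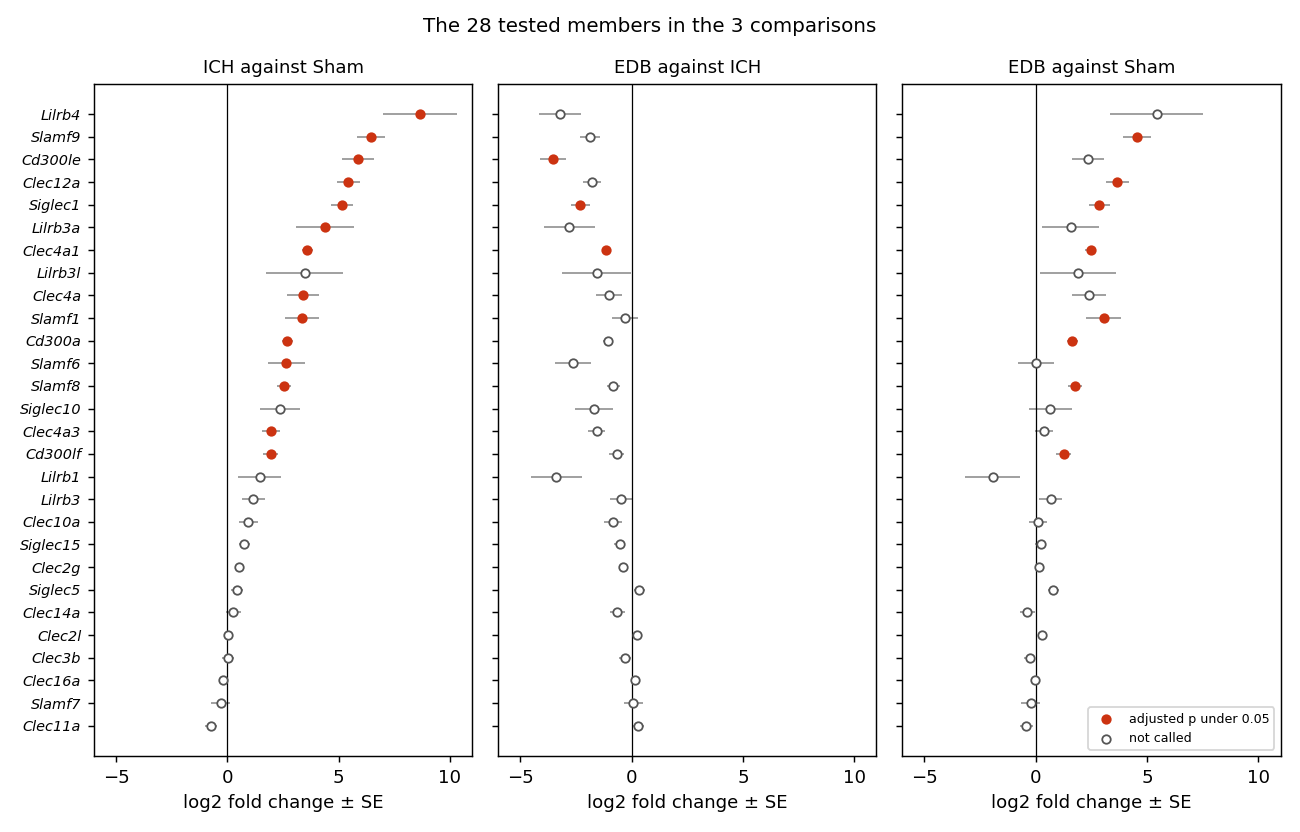
Log2 fold change ± SE of the 28 tested members in each comparison, ordered by the change in ICH against Sham, with filled points for an adjusted p under 0.05. In ICH against Sham 14 points are filled, in EDB against ICH 3 and in EDB against Sham 8, and the comparisons share libraries.

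The comparison of EDB with Sham asks how the drug group differed from the control. Of the 28 tested members, 8 were called higher in EDB, none lower and 20 were not called, whereas 4.95% of all tested genes were called higher and 2.71% lower. The test found 0 lower members, with 0 lower at an unadjusted p under 0.05 and 0 by DESeq2 or limma-voom. The median log2 fold change was 0.73, against -0.01 over all tested genes. All EDB libraries lay above all Sham libraries in 13 members, and 15.1% of all tested genes had that order. Clec4a1 was higher in EDB (log2 fold change 2.47 ± 0.24, adjusted p = 0.000467), as were Slamf9 (log2 fold change 4.57 ± 0.63, adjusted p = 0.00185), Clec12a (log2 fold change 3.65 ± 0.52, adjusted p = 0.00204), Cd300a (log2 fold change 1.65 ± 0.24, adjusted p = 0.00246), Siglec1 (log2 fold change 2.85 ± 0.48, adjusted p = 0.00488) and Slamf8 (log2 fold change 1.75 ± 0.31, adjusted p = 0.00665). Siglec1 and Slamf8 were not called when Sham 2, ICH 1 and EDB 1 were left out together (adjusted p = 0.0808 and 0.0581), nor was Siglec1 with limma-voom (adjusted p = 0.052).

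Slamf1 (log2 fold change 3.05 ± 0.79, adjusted p = 0.0397) and Cd300lf (log2 fold change 1.26 ± 0.34, adjusted p = 0.0458) were called with less margin. Leaving out any Sham library, ICH 2 or 3, or EDB 1 or 2 ended the call of Slamf1, at adjusted p between 0.0573 and 0.151, as did the replicate block (adjusted p = 0.0774), a term for the libraries with little Alb (0.0537) and leaving out Sham 2, ICH 1 and EDB 1 together (0.121). Cd300lf lost it on leaving out any ICH library, Sham 2 or 3, or EDB 1 or 2, at adjusted p between 0.0597 and 0.155. It was also lost without Sham 2, ICH 1 and EDB 1 together (adjusted p = 0.211), with a term for these libraries (0.0626), with only the 6 libraries compared (0.0993), with limma-voom (0.0741) and with scaling by library size only (0.0542). Cd300le was not called (log2 fold change 2.35 ± 0.73, adjusted p = 0.0788), but was called without EDB 3 (log2 fold change 2.79, adjusted p = 0.0264), without ICH 1 (adjusted p = 0.0472), with the replicate block (adjusted p = 0.0454), with a term for the libraries with little Alb (adjusted p = 0.0437) and with DESeq2 (adjusted p = 0.00296). DESeq2 also called Lilrb4 higher in EDB than in Sham (adjusted p = 0.023).

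Within the groups, the 14 members that rose in ICH ordered the libraries alike. ICH 1 was the highest ICH library in 12 of them, against 55.1% of the 1628 genes that rose. EDB 1 was the highest EDB library in 12, against 41.3%, and EDB 3 was the lowest in 12, against 51.7%. All EDB libraries lay between all Sham and all ICH libraries in 8 of the 14 (Cd300a, Cd300le, Cd300lf, Clec12a, Clec4a1, Siglec1, Slamf8 and Slamf9), against 34.9% of the genes that rose. Each gene of a library shares its tissue sample, so these counts describe the libraries and were given no test. EDB 3 is the library with choroid plexus transcripts and ICH 1 the one without Y-linked reads, and the part of either in these orders was not tested.

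Some markers of several leukocyte types moved with the receptors, and others did not. The 11 microglia genes summed to 723 to 831 CPM in Sham, 2837 to 3181 CPM in ICH and 1509.8 to 2506 CPM in EDB. Of the 11, 8 were called higher in ICH than in Sham. The 3 not called were Tmem119 (log2 fold change 0.27 ± 0.23, adjusted p = 0.488), P2ry12 (1.68 ± 0.58, adjusted p = 0.0732) and Gpr34 (1.55 ± 0.60, adjusted p = 0.104). Csf1r, C1qa and C1qb made up most of the ICH sum, with means of 862, 646 and 586 CPM. The 10 monocyte and border macrophage genes found in the files summed to 163 to 233 CPM in Sham, 630.5 to 1074 CPM in ICH and 272 to 428 CPM in EDB, with 7 of 9 tested called higher, and the 10 neutrophil genes to 11.4 to 13.9 CPM in Sham, 119 to 207 CPM in ICH and 27.8 to 188 CPM in EDB, with 4 of 6 tested called higher. Dendritic cell genes (8 in the files) summed to 27.3 to 32.0 CPM in Sham, 100.2 to 129 CPM in ICH and 56.2 to 85.7 CPM in EDB. Only 1 of 5 tested, Irf8, was called higher. Irf8 made up most of that sum, with means of 20.6 CPM in Sham, 106 CPM in ICH and 65.4 CPM in EDB. The other tested genes had log2 fold changes of 0.99 ± 0.91 (Batf3), 0.92 ± 0.37 (Flt3), -0.41 ± 0.41 (Itgae) and -0.58 ± 0.27 (Zbtb46) in ICH against Sham. Genes of T and NK cells (10 in the files) summed to 4.62 to 7.87 CPM in Sham, 4.22 to 6.21 CPM in ICH and 4.08 to 6.44 CPM in EDB, those of B and plasma cells (8) to 1.49 to 1.85 CPM in Sham, 1.57 to 2.33 CPM in ICH and 1.14 to 2.29 CPM in EDB, and none of either list was called. The defining genes Ccr2 of monocytes and Xcr1 of dendritic cells had 22 and 17 reads over all 9 libraries. Lcn2 made up most of the neutrophil sum in ICH 1 to 3 (139, 78.1 and 63.5 CPM) and in EDB 1 (150 CPM). Csf3r made up most of the rest in ICH 1 to 3 (59.1, 51.3 and 49.5 CPM). The neutrophil genes Mpo, Elane, Retnlg and Camp had 3, 3, 5 and 17 reads over all libraries. Ngp was not called in ICH against Sham (log2 fold change -0.42 ± 0.93, adjusted p = 0.816). Platelet genes (8) summed to 10.6 to 11.6 CPM in Sham, 13.3 to 14.9 CPM in ICH and 9.89 to 19.1 CPM in EDB, with 2 of 3 tested higher and 1 lower. The part of these cells in the receptor values was not tested. EDB against ICH gave 0 called microglia or neutrophil genes and 1 monocyte and border macrophage gene, which was lower.

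The partners of the receptors in the cell changed in the same comparison. Of 21 tested adaptors and proximal signalling genes, 16 rose in ICH, none fell and 5 were not called (median log2 fold change 2.10). The adaptor Tyrobp stood at 8.94, 7.46 and 9.77 CPM in Sham, 98.3, 78.0 and 79.2 CPM in ICH and 59.6, 58.0 and 32.3 CPM in EDB, with a rise of 3.29 ± 0.24 (adjusted p = 2.29e-05). Fcer1g, the other adaptor, rose by 2.56 ± 0.21 (adjusted p = 2.90e-05), and the phosphatase Ptpn6, which inhibitory tails recruit, by 3.05 ± 0.26 (adjusted p = 3.46e-05). In EDB against Sham 13 of the 21 were higher, and in EDB against ICH 1 was lower. Relatives of the members under other symbols gave 9 higher and 10 uncalled of 19 tested in ICH against Sham (median 1.05). The Siglec Cd33 rose by 2.15 ± 0.24 (adjusted p = 0.000141), the Slam receptor Cd84 by 3.44 ± 0.52 (adjusted p = 0.00107) and the glucan receptor Clec7a by 6.93 ± 0.87 (adjusted p = 0.000304). Of 21 tested genes for ligands and for the sialic acid that Siglecs bind, 4 rose in ICH and 17 were not called (median 0.35). Over all tested genes, 11.4% rose. Among them were podoplanin (Pdpn), the ligand of the platelet lectin Clec1b, with 1.65 ± 0.16 (adjusted p = 6.52e-05), and the filament Vim, with 2.57 ± 0.33 (adjusted p = 0.000354). Clec1b itself had 19 reads over all libraries. In EDB against ICH, 1 of these 21 genes was lower, Pdpn (log2 fold change -1.26 ± 0.15, adjusted p = 0.014), and 20 were not called. In EDB against Sham, 1 was higher, Vim (log2 fold change 1.17 ± 0.31, adjusted p = 0.0481), and 20 were not called.

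Promoters of the members were searched for the letters GAGGAAG, the core that the myeloid transcription factor PU.1 is known to bind, on both strands. The promoters were those of RefSeq on the build GRCr8, 250 bases before to 50 after each gene's start, and 46 of the 58 members had one. The letters were found in 6 of 11 called members with a promoter, in 4 of 11 that were tested and not called, and in 3 of 24 that were not tested. Of all 33469 promoters, 12.4% held them. A match describes the sequence and is no sign of binding. The stretches around the matches in the called members are shown to set the letters, in capitals, beside their surroundings.
Clec4a1, chr4:157845625-157845655, + strand: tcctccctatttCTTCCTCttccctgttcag
Clec4a3, chr4:157886508-157886530, + strand: actgCTTCCTCttttttccattc
Clec12a, chr4:164484120-164484150, + strand: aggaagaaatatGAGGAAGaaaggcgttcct
Cd300lf, chr10:100875105-100875135, - strand: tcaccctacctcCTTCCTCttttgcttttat
Cd300lf, chr10:100875063-100875093, - strand: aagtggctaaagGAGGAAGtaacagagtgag
Slamf6, chr13:86916884-86916914, + strand: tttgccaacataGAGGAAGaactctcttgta
Slamf9, chr13:87474300-87474330, + strand: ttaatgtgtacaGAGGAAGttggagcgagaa
The capitals begin 174 bases before the gene's start in Clec4a1, 246 in Clec4a3, 30 in Clec12a, 101 and 59 in Cd300lf, 60 in Slamf6 and 15 in Slamf9. Capitals reading CTTCCTC hold the same letters on the opposite strand. The promoters of Cd300a, Slamf8, Slamf1, Clec4a and Lilrb4, which also rose, did not hold them. For Cd300le, Siglec1 and Lilrb3a, which rose too, there was no promoter to search.

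The promoter of Slamf9, the member with the largest ratio that had reads in Sham, is given whole (RefSeq, GRCr8, chr13:87474077-87474376, + strand, capitals as above).
Slamf9: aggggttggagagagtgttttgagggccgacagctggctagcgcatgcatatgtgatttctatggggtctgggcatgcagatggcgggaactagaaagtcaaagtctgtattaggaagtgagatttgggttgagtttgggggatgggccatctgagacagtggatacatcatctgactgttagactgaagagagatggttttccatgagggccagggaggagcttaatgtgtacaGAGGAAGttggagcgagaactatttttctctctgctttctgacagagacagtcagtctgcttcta

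By order of the protein-coding genes on the assembly GRCr8, with other genes between them passed over, some members are direct neighbours. A run of 7 adjacent genes held Clec4a1, Clec4a3, Clec4a2, Clec4a, Clec4b2, Clec4d and Clec4e, of which the 3 tested (Clec4a1, Clec4a3 and Clec4a) all rose in ICH and 4 were too low to test. Another run of 4 neighbours (Clec12b, Clec1b, Clec9a and Clec1a) held no tested member. Lilrb4, which rose, lies beside Lilrb3, which was not called (log2 fold change 1.16 ± 0.51, adjusted p = 0.145), and Siglec5 beside Siglec10, neither of which was called.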

How the data were processed

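The deposited files hold raw read counts per gene, as whole numbers for 22890 gene rows, per the file headers, with 1 file for each of the 9 libraries of rat striatal tissue. The submitters' processing notes name cutadapt, HISAT2, HTSeq, limma and the build Rnor_6.0. For versions, roles, annotation and strand setting, the sources used here give nothing. Reads of a gene and of an overlapping antisense gene therefore cannot be told apart.

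A single edgeR 4.0.16 model (R 4.3.3, TMM scaling, robust glmQLFit) held a mean for each group over all 9 libraries. It was fitted to the 14274 genes that filterByExpr kept. Each pair of groups was then tested by the quasi-likelihood F test, with Benjamini-Hochberg adjustment across these genes. The procedure was tested on simulated data. Members, lists and tests were chosen with earlier results of these data known, and no list was tested as a set.

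Values are printed for members called in any comparison and for uncalled ones with a mean of at least 2 CPM. Others are summarised, or were picked after their values were seen. Where a count is 0, up to 3 counts are allowed, and ratios carry exact Clopper-Pearson intervals at 95%. These reflect counting error alone, as PCR copies are not independent molecules. Replicate libraries differed by far more than sampling noise. The alternatives tried were DESeq2 1.42.0, limma-voom (limma 3.58.1), RLE scaling, library size only, no filter, a filter of 1 CPM in 3 libraries, a fit to the 6 libraries of a comparison, the replicate number as a block, a minimum log2 fold change of 1, and omission of each library in turn. After seeing the data 3 more were added, which left out the libraries with little Alb, gave them a term, or summed Lilrb rows. Protein sequences were not used here.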

Additional observations from a re-analysis of the deposited data

How the results depend on the processing

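The count of members higher in ICH than in Sham was 14 and stayed between 12 and 16 in all alternatives run (12 to 15 with 1 library left out), and that of members higher in EDB than in Sham was 8 and stayed between 6 and 10, except 4 without Sham 2, ICH 1 and EDB 1. The count of members lower in EDB than in ICH was the unstable one. It was 3, but 8 with DESeq2, 6 with limma-voom, 0 with only the 6 libraries compared, 1 without Sham 2, ICH 1 and EDB 1 (Clec4a3, not one of the 3), and 0 to 6 with 1 library left out. It was 0 without Sham 1, Sham 3, ICH 1, ICH 2, EDB 2 or EDB 3, 1 without ICH 3 and 6 without Sham 2. The cause was not tested. Over all tested genes, 90 were lower and 8 higher in EDB than in ICH, against 485 and 217 with DESeq2, 161 and 21 with limma-voom, 84 and 26 with only the 6 libraries compared, 58 and 0 with the replicate block, 29 and 2 without Sham 2, ICH 1 and EDB 1, 121 and 31 with a term for these libraries, and 8 to 229 lower and 0 to 92 higher with 1 library left out. EDB against Sham gave 387 lower and 707 higher, against 757 and 1040 with DESeq2, 251 lower with only the 6 libraries compared, 228 lower with the replicate block, 465 higher without Sham 2, ICH 1 and EDB 1, and 134 to 726 lower and 374 to 935 higher with 1 library left out. ICH against Sham gave 1042 lower, against 1465 with DESeq2, 746 with the replicate block and 691 with library size only. With 1 library left out, that comparison gave 565 to 993 lower. Same-numbered libraries did not deviate from their group means together (correlations from -0.311 to 0.245), so the numbers were not taken as pairs. With the replicate block, 12 members were higher in ICH, 2 lower in EDB than in ICH and 8 higher in EDB than in Sham. Signs reversed only in values that were not called in the main test. In ICH against Sham, the log2 fold change of Clec2l was 0.02, with -0.011 under RLE scaling or DESeq2 and -0.16 to 0.19 with 1 library left out. That of Clec3b was 0.02, with -0.013 under RLE scaling, -0.012 under DESeq2, -0.039 without Sham 2, ICH 1 and EDB 1, and -0.039 to 0.059 with 1 library left out. In EDB against Sham without Sham 2, ICH 1 and EDB 1, Clec10a came to -0.33, Clec4a3 to -0.36, Slamf6 to -0.36, Lilrb3a to -1.64 and Lilrb3l to -4.21, against 0.11, 0.39, 0.00, 1.58 and 1.90. Slamf6 was -0.0066 under RLE scaling, -0.023 with DESeq2, -0.082 with the replicate block and -0.054 with a term for these libraries. With 1 library left out, Clec10a ranged from -0.22 to 0.34, Clec16a from -0.13 to 0.017, Clec4a3 from -0.088 to 0.65, Lilrb3a from -1.59 to 2.62, Lilrb3l from -4.30 to 2.76 and Slamf6 from -0.44 to 0.998.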
